A study of Mus musculus with 6 samples.

Results

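The cytosolic ribosomal protein genes code for the proteins of the ribosome that translates the messenger RNA of the cell nucleus. They were taken as the probes whose gene name on the array has the form of Rpl or Rps with a number, and 184 of the 55681 probes that are not controls carried such a name. These 184 probes stood for 82 of the 34797 gene names of the array, 51 of the large subunit and the stalk with 118 probes and 31 of the small subunit with 66 probes. The annotation of the array design on the older of its files gave 181 of them, and the 3 others were named so in the newer one alone. The form of name leaves out some genes that also code for ribosomal proteins, such as Rpsa and Fau, which are counted below with the translation genes. The rule used no measured value.

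RNA was measured on 6 single-colour Agilent arrays in the cerebellum of C57BL/6J pups at postnatal day 1, whose dams ate a custom AIN-93G amino acid diet from one week before mating and through pregnancy. The diet held folic acid (FA), a vitamin of one-carbon metabolism, at 2 mg/kg in the control groups and at 20 mg/kg in the test groups. Each array held a pool of 3 pups of the same sex, each pup from another dam, with 1 array per sex at 2 mg FA and 2 arrays per sex at 20 mg FA (replicates 1 and 2). The RNA of the repeated 20 mg pools was extracted in a different batch, and no 2 mg pool has a repeat. Only the 20 mg groups show how pools vary, and there pool, batch, slide and scan day vary together. The titles give the tissue as cerebellum and a tissue field gives whole brain. Of 22 probes of cerebellar genes, 18 to 21 were well above background on each of 5 arrays, and of 15 probes of forebrain genes, 7 to 13 were. On the sixth array, described next, these were 9 and 3.

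One array, labelled as replicate 2 of the females at 20 mg FA and called the dim female array below, stood apart. The share of all probes well above background was 23.3% there and 51.1% to 71.9% elsewhere. Its median processed signal was 5.14, against 38.98 to 161.6. Some of its sex-linked transcripts also went against its label. Eif2s3y, a gene of the Y chromosome, had a normalized log2 value of 10.12 there and was well above background, against 3.32 and 4.04 on the other female arrays and 10.62 to 11.99 on the male arrays. The value of 4.04, on female 20 mg replicate 1, was also called well above background. Ddx3y, a second gene of the Y chromosome, had 7.71 on the dim female array, not well above background, against 3.32 on both other female arrays and 9.41 to 10.46 on the male arrays. The brighter probe of Xist, the RNA of the inactive X chromosome, had 7.27 there and was not well above background, against 9.67 and 10.84 on the other female arrays and 3.32 on each male array. Female values are therefore given for each array. Slide 1 held both 2 mg arrays and the first female pool at 20 mg FA. Slide 2, scanned on another day, held the dim female array with the first male pool at 20 mg FA, and slide 3 held the second male pool.

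Each ribosome holds a single copy of most of its proteins, and the genes for them are used together in nearly all cells. Their mRNAs are among the most abundant of a cell, and many of them begin with a run of pyrimidines at the first base, the terminal oligopyrimidine tract, through which the kinase mTOR sets how strongly they are translated. Several have paralogs that are used in few tissues, and the mouse genome holds many processed pseudogenes of them, so that a probe can match more than one place.

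Each probe of the array is 60 bases long, and 58 of the 82 genes had more than 1 probe (up to 7). The probes of 3 genes are shown here because probes of the same gene gave different dose differences on some arrays (below). Capitals mark bases that differ between overlapping probes of the same gene. Rpl11 codes for a large subunit protein that also binds the p53 regulator Mdm2. Probe A spans an intron, at chr4:135605902-135606224 in mm9 on the minus strand, and ends at the stop codon. Probe B lies at chr4:135605879-135606201 and probe C at chr4:135605863-135605922, and their first 30 bases are given.
Rpl11 probe A: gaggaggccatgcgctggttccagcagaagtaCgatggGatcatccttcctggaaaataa
Rpl11 probe B: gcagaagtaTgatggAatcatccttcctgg
Rpl11 probe C: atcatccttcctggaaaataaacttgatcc
The G+C content is 51.7% for probe A, 35% for probe B and 30% for probe C over all 60 bases. Rps3a codes for a small subunit protein, and its 3 probes lie on the minus strand at chr3:85943041-85943100 (A), chr3:85942435-85942494 (B) and chr3:85942027-85942458 (C) in mm9, with a G+C content of 45% for A and 36.7% for B and C.
Rps3a probe A: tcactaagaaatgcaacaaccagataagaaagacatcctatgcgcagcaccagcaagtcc
Rps3a probe B: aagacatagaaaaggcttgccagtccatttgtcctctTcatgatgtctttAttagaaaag
Rps3a probe C: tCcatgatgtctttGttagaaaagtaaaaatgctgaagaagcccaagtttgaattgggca
Rpl7a codes for a large subunit protein. Among its 4 probes, probes A and B are placed at the same position, chr2:26768759-26768818 in mm9 on the plus strand, yet differ in 6 bases, all within bases 23 to 52, which are shown.
Rpl7a probe A: tTgGgttaaatgtaTGctGaattttctgtA
Rpl7a probe B: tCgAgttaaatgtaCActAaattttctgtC
Over all members, 30 pairs of probes of the same gene overlapped by at least 20 bases, and 25 of these pairs, in 19 genes, differed in at least 1 base of the overlap. Of 130 probes whose gene has an entry in a RefSeq promoter table, 7 probes of 3 genes (Rps27, Rpl13 and Rps4x) were placed on another chromosome than the gene, among them all 4 probes of Rps27. Copies of near-identical sequence can share signal, so the values of such probes may not belong to the named gene alone.

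The ribosomal protein probes were among the brightest of each array. Of the 184, 168 lay well above background on all 6 arrays and 179 on at least 2, and none was saturated. On 5 arrays 178 to 181 of them were well above background, and on the dim female array there were 168 (91.3%, against 23.3% of all probes). The median member lay at percentile 98.5 of brightness on the dim female array and between 98.6 and 99.1 on the others. Probe brightness depends on the probe sequence too, so these percentiles are no measure of RNA abundance. The median processed signal of the members was 91559 on the female 2 mg array, 169320 on female 20 mg replicate 1, 2746 on the dim female array, 114500 on the male 2 mg array, 40968 on male 20 mg replicate 1 and 17479 on male 20 mg replicate 2, before any scaling between arrays. The median over all probes was 93.2, 161.6, 5.14, 119.3, 40.9 and 38.98 in the same order. Both medians ranked the arrays alike. On the dim female array and male 20 mg replicate 2, the members fell by a larger factor from the 2 mg array of their sex than all probes did. Unless stated otherwise, the values below were quantile normalized, which puts every array on the same distribution of brightness.

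Among the 5 probes that were not well above background on at least 2 arrays were those of 3 paralogs of core genes. Rpl10l, a retrocopy of Rpl10, had 2 probes that were not well above background on any array. Rpl3l, known from striated muscle, and Rpl39l, known from testis, were above background on female 20 mg replicate 1 only. In contrast, the core genes Rpl3, Rpl10 and Rpl39 were well above background on all 6 arrays. Among the other paralogs, Rpl22l1 and Rps27l were well above background on all 6 arrays and Rpl7l1 on 5 of 6.

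The dose comparison asks whether the RNA of the pups differed between 20 and 2 mg FA. For the members as a group the median differences did not run the same way on the 4 arrays. Relative to the 2 mg array of their sex, the 179 detected probes had a median log2 difference of 0.11 (SD 0.35 over probes) on female 20 mg replicate 1, -0.13 (SD 1.35) on the dim female array, 0.07 (SD 1.06) on male 20 mg replicate 1 and -0.32 (SD 0.47) on male 20 mg replicate 2. Over all detected probes the medians were 0.03, -0.48, 0.09 and -0.16 in the same order. More members were higher than lower on female 20 mg replicate 1 (120 of 179) and male 20 mg replicate 1 (99), and more were lower on male 20 mg replicate 2 (142) and on the dim female array (102). The 2 pools of a sex thus had medians of opposite sign. The median of the mean difference was -0.09 in males and -0.04 in females, against -0.04 and -0.21 over all detected probes. These values depended on the scaling. With a common 75th percentile they were -0.57 in males and 0.46 in females, against -0.12 and 0.45 over all detected probes. The female and male 2 mg arrays, which share a slide, differed by -0.04 in the median (female minus male, SD 0.17 over probes). The 2 arrays of slide 2, the dim female array and male 20 mg replicate 1, had the widest spread of the members, and slide and pool cannot be told apart there.

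**Figure D1:**
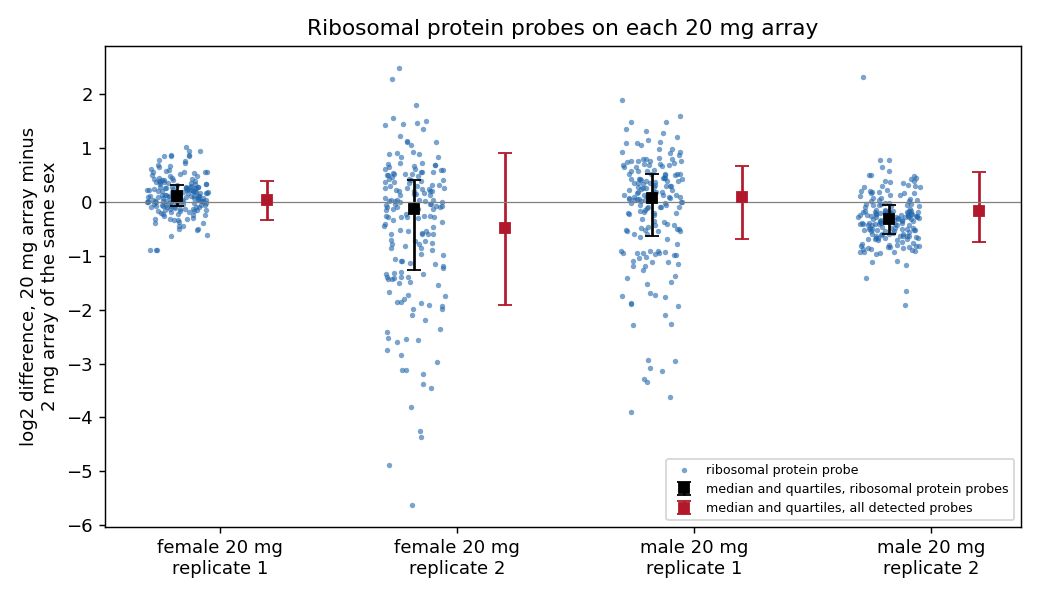
Each point is 1 of the 179 detected ribosomal protein probes, and the vertical axis is the log2 difference of a 20 mg array from the 2 mg array of its sex. Squares and bars give the median and quartiles for these probes (black) and for all detected probes (red), and the points spread widest on the dim female array (SD 1.35) and on male 20 mg replicate 1 (SD 1.06).

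By the study's fold rule, which keeps probes of high variance and then asks for a mean difference of at least 2.5-fold, 9 of 179 member probes were lower at 20 mg FA in males, which is 5.03%, against 2.97% of the 37252 detected probes. None was higher in males, against 1.7% of all detected probes. In females 9 member probes were lower (5.03%), against 15.3% of all, and none was higher, against 5.43% of all. On the dim female array, 91.3% of the members but 23.3% of all probes were well above background, so these sets are unlike. Among probes detected on all 6 arrays, 4 of 168 members were lower in females (2.38%, against 2.22% of all such probes). In males 7 were lower there (4.17%, against 1.86%). Of the lower probes among the 179 members, 3 were lower in both sexes (1.68% of the members, against 1.48% of all detected probes), 1 each of Rpl17, Rpl39 and Rpl7a. With the arrays shifted to a common 75th percentile in place of quantile normalization, 1 member probe was lower in each sex (0.559%), against 0.663% of all in males and 0.918% in females. A limma fit across 37211 probes called no member and no other probe in males, in females, over both sexes or for the interaction of dose and sex (percent called 0.0 in each, Benjamini-Hochberg adjusted p under 0.05). The unadjusted limma p was under 0.05 for 2 member probes over both sexes, 1 of Rpl17 and 1 of Rps21 (1.12%, against 0.39% of all probes), and for none in males, in females or for the interaction (0.199%, 0.433% and 0.137% of all). The standard error of a single member probe's difference had a median of 0.92 on the log2 scale within a sex. It is not an error of the group medians given above, which were not tested.

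Each set of 9 lower probes followed mainly 1 array. In males all 9 were past 2.5-fold on replicate 1 and 1 of them, of Rpl39, also on replicate 2. In females none was past 2.5-fold on replicate 1 and all 9 were on the dim female array. Without that array the female count was 0 (3.13% of all detected probes were lower), and without female 20 mg replicate 1 it was 23 (12.8%, against 20.4% of all). Without male 20 mg replicate 1 the male count was 2 (1.12%, against 3.54% of all), and 1 of these was among the 9. Of the 3 probes lower in both sexes, those of Rpl17 and Rpl39 were lower on all 4 arrays. The Rpl39 probe, with a G+C content of 26.7%, had a log2 value of 8.21 on the female 2 mg array, 7.31 and 3.32 on the 20 mg arrays, 8.17 on the male 2 mg array, and 6.44 and 6.25 at 20 mg. The value of 3.32 is the floor of the scale. The brightest probe of Rpl39, a small protein near the exit of the ribosomal tunnel, had 15.25 on the female 2 mg array, 14.35 and 15.93 at 20 mg, 15.01 on the male 2 mg array, and 15.22 and 14.72 at 20 mg. Its groups overlapped in males and females, and the pools at 20 mg lay on both sides of the 2 mg array.

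The genes by role are given by their brightest probe, as normalized log2 values in the order 2 mg, 20 mg replicate 1 and 20 mg replicate 2, first for females and then for males. Rplp0, Rplp1 and Rplp2 form the stalk, which recruits the elongation factors. Rplp0 had 16.57, 16.75 and 16.47 in females and 16.67, 16.14 and 16.75 in males. Rplp1 had 15.85, 16.46 and 14.52 in females and 16.04, 16.48 and 15.97 in males. Rplp2 had 16.58, 16.98 and 16.84 in females and 16.58, 16.88 and 16.22 in males. For all 3, the male pools at 20 mg lay on both sides of the male 2 mg array, and Rplp2 alone was higher than the 2 mg array in both female pools. The limma standard error was 0.90 to 0.96 for these genes, above every mean difference.

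Among core genes with a named paralog, Rpl22 and Rpl22l1 are RNA-binding large subunit proteins. Rpl22l1 was lower on all 4 arrays, with 14.74, 14.30 and 14.48 in females and 14.88, 13.83 and 13.96 in males. Its differences were -0.35 (SE 0.89) in females and -0.98 (SE 0.89) in males. Rpl22 had 14.58, 14.65 and 16.36 in females and 14.78, 15.19 and 14.30 in males, so that its high value stood on the dim female array. Rpl10, which completes the large subunit late in assembly, was also lower on all 4 arrays, with 16.96, 16.63 and 16.69 in females and 17.07, 15.96 and 16.25 in males. Its difference was -0.97 (SE 0.89) in males and -0.31 (SE 0.89) in females. Neither the Rpl10 nor the Rpl22l1 probe passed the fold rule or the limma test, and both have a G+C content of 35%.

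Rpl3, which forms part of the core around the peptidyl transferase centre, had 15.52, 15.54 and 16.63 in females and 15.47, 15.47 and 15.40 in males. The male differences were 0.00 and -0.06. Rpl7 had 15.98, 16.25 and 16.40 in females and 16.22, 15.52 and 15.74 in males, higher on both female arrays at 20 mg and lower on both male ones. The G+C content of this Rpl7 probe is 35%. Rpl7l1 had 6.71, 7.47 and 3.32 in females and 6.95, 6.41 and 6.25 in males, and the 3.32 is the floor. Rps27l had 12.81, 13.01 and 12.54 in females and 12.89, 12.51 and 12.57 in males. Rps27, whose probes are placed on another chromosome than the gene, had 16.58, 16.59 and 17.08 in females and 16.34, 16.74 and 16.02 in males.

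Of the small subunit proteins, Rps6 is the target of the S6 kinases below mTOR. It had 15.30, 15.90 and 14.21 in females and 15.67, 16.12 and 15.27 in males, with replicate 1 above and replicate 2 below the 2 mg array in both sexes. Rps14 and Rps19 are genes whose human counterparts are tied to anaemias of impaired ribosome assembly. Rps14 had 17.29, 17.40 and 17.16 in females and 17.43, 16.84 and 17.00 in males. Rps19 had 14.55, 14.09 and 12.57 in females and 14.39, 14.47 and 14.04 in males. Rps27a, made as a fusion with ubiquitin, had 16.57, 16.67 and 16.44 in females and 16.57, 16.58 and 16.14 in males. Rps4x, of the X chromosome, had 14.88, 15.27 and 15.17 in females and 14.99, 14.08 and 15.10 in males. No group of these was separated from its 2 mg array in the same direction in both sexes.

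Of the large subunit proteins, Rpl5 and Rpl11 bind 5S rRNA and Mdm2 together. Rpl5 had 13.88, 14.74 and 12.07 in females and 14.33, 13.89 and 13.66 in males. Rpl11 by its brightest probe had 16.19, 16.60 and 15.78 in females and 16.50, 16.80 and 16.16 in males. Rpl13a, a component of a complex that holds back translation of some inflammatory mRNAs, had 15.45, 15.72 and 15.42 in females and 15.52, 14.41 and 15.67 in males. Rpl38, needed for the translation of Hox mRNAs in mouse embryos, had 16.59, 16.87 and 18.04 in females and 16.61, 16.98 and 16.57 in males. Rpl41, the smallest protein of the ribosome, had 17.14, 17.09 and 17.35 in females and 16.95, 17.47 and 17.14 in males.

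Genes that moved the same way on all 4 arrays were few. By single probes, 18 of 179 (10.1%) were lower on all 4 arrays and 7 (3.91%) were higher, against 6.69% and 5.13% of all detected probes. By brightest probe, 7 genes were lower on all 4. Rps21 had the largest mean difference of these, with 15.36, 15.25 and 12.95 in females and 15.29, 11.66 and 14.58 in males. Rpl4 had 15.65, 15.51 and 14.45 in females and 15.73, 12.39 and 14.87 in males. Rps20 had 16.70, 16.69 and 14.17 in females and 16.91, 16.67 and 16.43 in males. Rps21 and Rpl4 passed the fold rule in males, with mean log2 differences of -2.16 (SE 1.14) and -2.10 (SE 1.02), and for both the lowest male value stood on male 20 mg replicate 1. The G+C content of the 2 probes is 30% and 35%. Higher on all 4 arrays were 4 genes, 1 of which was Rpl3l, at or near background. Rpl8 had 16.09, 16.35 and 16.65 in females and 16.19, 16.62 and 16.46 in males. Rpl36 had 16.01, 16.04 and 17.52 in females and 16.00, 16.76 and 16.39 in males. Rps16 had 16.46, 16.60 and 17.14 in females and 16.46, 17.94 and 16.52 in males. Rpl8, Rpl36 and Rps16 did not pass the fold rule in either sex.

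**Figure D2:**
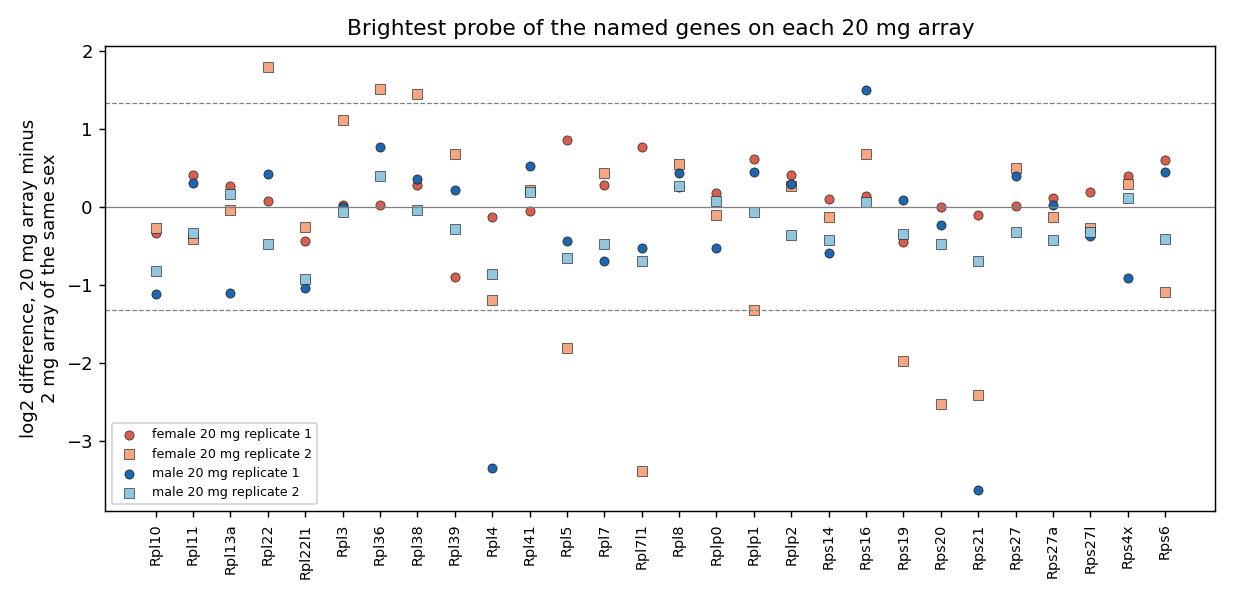
Each column is a named gene by its brightest probe, and each point is the log2 difference of 1 of the 4 arrays at 20 mg from the 2 mg array of its sex. Dashed lines mark 2.5-fold. The 2 points of a sex lie on opposite sides of 0 for 12 of the 28 genes in females and 14 in males, and the lowest values are those of Rpl4, Rps21 and Rpl7l1.

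Probes of the same gene disagreed. On male 20 mg replicate 1, Rpl11 probe A had a log2 difference of 0.30, probe B of -1.16 and probe C of -3.15. On male 20 mg replicate 2 the same probes had -0.34, -0.63 and -0.74. Rps3a probes A and B, which lie upstream in the transcript, had 0.60 and 0.11 on male 20 mg replicate 1, and probe C had -2.94. On the dim female array they had 0.15, 0.20 and -1.99. The Rpl7a probes at the same position had -1.94 for probe A and -3.90 for probe B on male 20 mg replicate 1, and -0.70 and -5.62 on the dim female array. On female 20 mg replicate 1 the probes of Rpl11 and Rpl7a shown above lay between 0.13 and 0.41. Each of these genes would be called lower in males by 1 probe and not by the others.

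**Figure D3:**
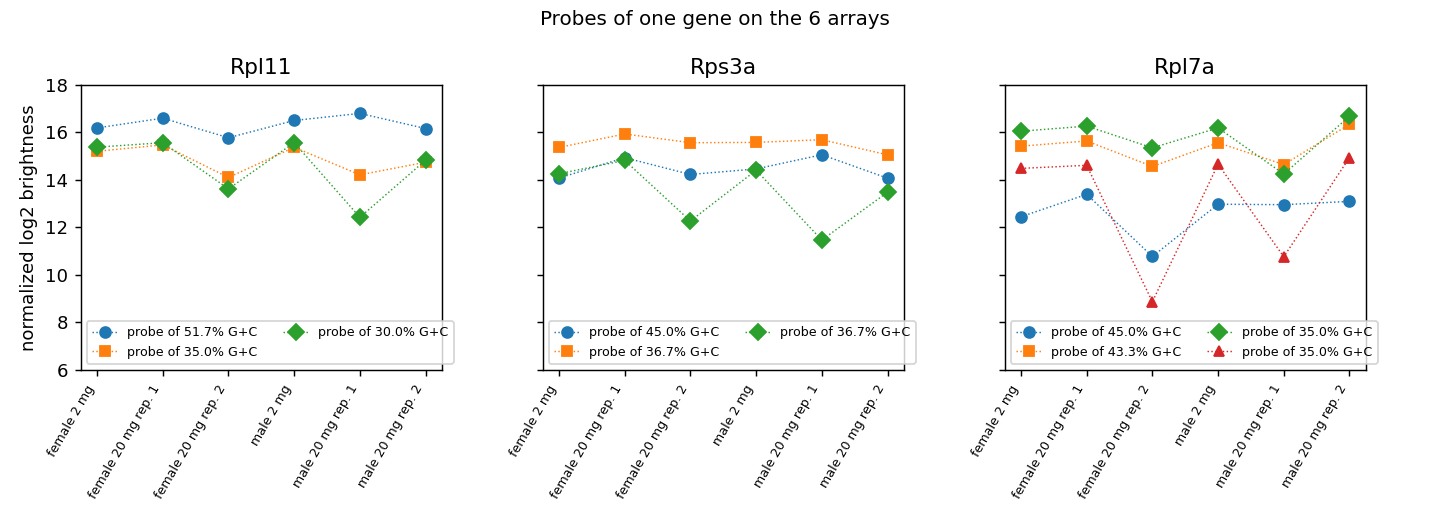
Normalized log2 brightness of every probe of Rpl11, Rps3a and Rpl7a on the 6 arrays, with a symbol for each probe and its G+C content in the key. Probe C of Rpl11 and probe C of Rps3a drop to 12.42 and 11.47 on male 20 mg replicate 1, where the other probes of the same gene stay at 14.21 or above.

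In 56 genes with at least 2 detected probes, the range between the probes of a gene had a median of 0.23 on female 20 mg replicate 1, 1.30 on the dim female array, 1.00 on male 20 mg replicate 1 and 0.34 on male 20 mg replicate 2, on the log2 scale. The range was past 2.5-fold in 1, 28, 23 and 3 genes. The probes of a gene pointed in both directions in 20, 28, 28 and 13 genes, in the same order. Overlapping probes with no differing base (5 pairs) had a median gap of 0.03, 0.16, 1.30 and 0.06 in that order. The 25 pairs with differing bases had 0.09, 0.63, 0.77 and 0.10. The gap was past 2.5-fold in 0, 1, 2 and 0 of the 5 pairs, and in 0, 5, 6 and 0 of the 25. The cause of these gaps was not tested.

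The differences were next set against the base composition of the probe. Over the 179 probes the Spearman correlation of G+C content with the log2 difference was 0.59 on male 20 mg replicate 1, 0.45 on male 20 mg replicate 2, 0.08 on female 20 mg replicate 1 and 0.02 on the dim female array. The probes share the arrays and often the gene, so this is a description. On male 20 mg replicate 1 the 35 probes with at most 36% G+C had a median of -1.11, and 33 of them were lower. The 42 probes with over 48% G+C had a median of 0.48, and 5 were lower. On male 20 mg replicate 2 these medians were -0.63 and -0.15. Within genes with several probes, after removing the mean of the gene, the correlation was 0.61 on male 20 mg replicate 1, 0.49 on male 20 mg replicate 2, 0.31 on female 20 mg replicate 1 and 0.11 on the dim female array (156 probes). Of 52 genes with probes of different G+C content, the probe lowest in G+C was lower than the one highest in G+C in 39 on male 20 mg replicate 1, 34 on male 20 mg replicate 2, 36 on female 20 mg replicate 1 and 28 on the dim female array. The 9 member probes lower in males had a G+C content of 26.7% to 36.7%, against a median of 45% over the detected members.

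**Figure D4:**
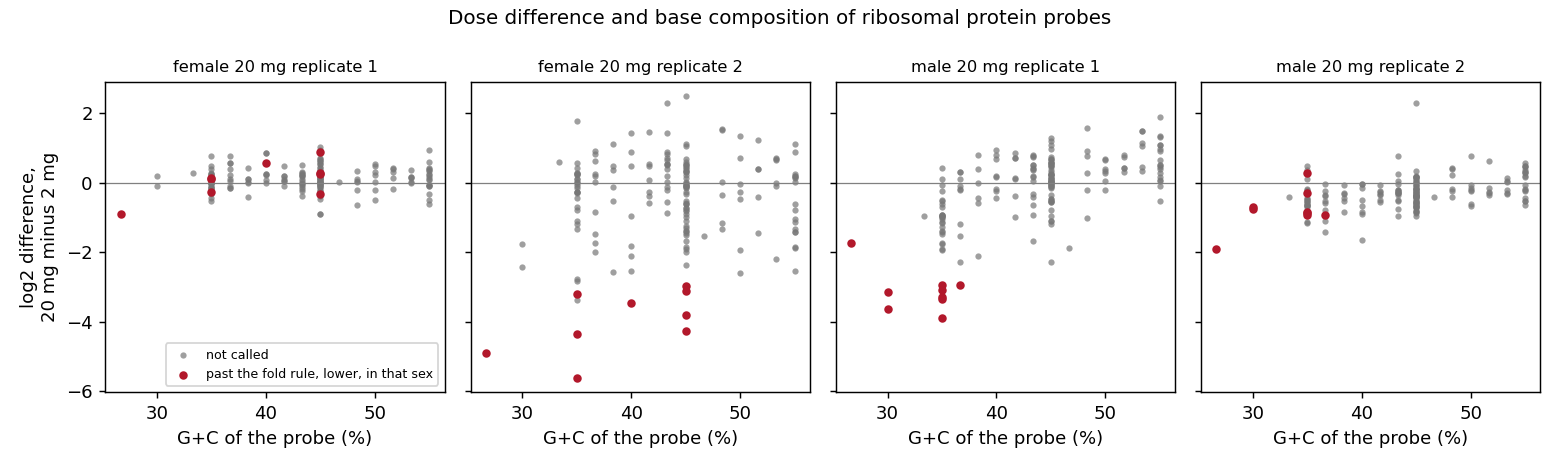
Log2 difference from the 2 mg array of the same sex against the G+C content of the probe, 1 panel for each array at 20 mg and 1 point for each of the 179 detected ribosomal protein probes. Red points passed the fold rule as lower in that sex. On male 20 mg replicate 1 the points rise from left to right (Spearman correlation 0.59), and on female 20 mg replicate 1 they do not (0.08).

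Over all detected probes the same correlation was -0.02 on male 20 mg replicate 1 and 0.50 on male 20 mg replicate 2. Among 1093 other probes at least as bright as the lower quartile of the members, a group chosen after these values were seen, it was 0.37 on male 20 mg replicate 1 and 0.43 on male 20 mg replicate 2. Their probes with at most 36% G+C had a median of -0.49 on male 20 mg replicate 1. Bright probes outside the ribosomal protein genes thus had the same sign. The part of base composition in the dose differences was not tested.

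Coherence was read from the deviation of each probe from its own mean over the 6 arrays. The median deviation was 0.06 on the female 2 mg array, 0.20 on female 20 mg replicate 1, -0.10 on the dim female array, 0.12 on the male 2 mg array, 0.16 on male 20 mg replicate 1 and -0.18 on male 20 mg replicate 2. On female 20 mg replicate 1, 71.5% of members lay above their mean (59.0% of all detected probes), and on male 20 mg replicate 2, 30.7% did (47.7% of all). The mean Pearson correlation over all pairs of member probes across the 6 arrays was 0.067, against 0.021 over pairs of all detected probes. The value was 0.127 without the dim female array, 0.121 without male 20 mg replicate 1 and 0.023 without male 20 mg replicate 2. The value thus depended on which arrays were counted.

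**Figure D5:**
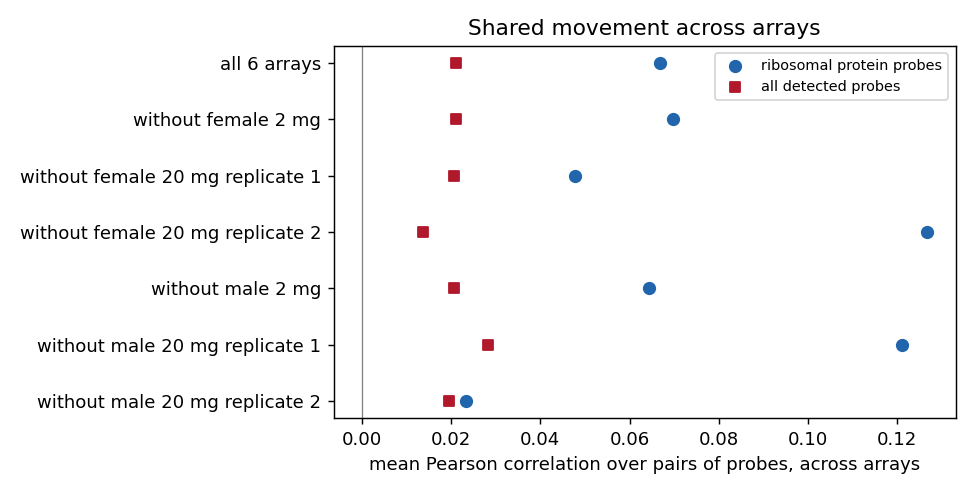
Mean Pearson correlation over pairs of probes across the arrays, for the 179 detected ribosomal protein probes (circles) and all detected probes (squares), with all 6 arrays and with each array left out. The circles lie between 0.023 and 0.127 and the squares between 0.014 and 0.028.

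The 104 detected probes of mitochondrial ribosomal proteins, which serve the separate ribosome of that organelle, had a median log2 difference of 0.10 on female 20 mg replicate 1, 0.21 on the dim female array, 0.18 on male 20 mg replicate 1 and -0.35 on male 20 mg replicate 2. The fold rule found 1 of them lower (0.96%) and none higher in males, and 8 lower (7.69%) and 1 higher (0.96%) in females. Over all detected probes the shares were 2.97% lower and 1.7% higher in males, and 15.3% lower and 5.43% higher in females. Translation factors and other genes whose mRNA starts with the pyrimidine tract (45 probes of 22 genes, among them Eef1a1, Eef2, Tpt1, Pabpc1 and Rpsa) had medians of 0.23, -0.25, 0.37 and -0.32 on the arrays in the same order. Of these, 2 were lower in males (4.44%) and 5 in females (11.1%), and none was higher. Genes of ribosome assembly and rRNA synthesis (41 probes of 30 genes, among them Fbl, Ncl and Polr1a) had 0.23, 0.16, 0.24 and -0.25. By the fold rule 1 of these was lower in males (2.44%) and 5 in females (12.2%). Genes that control ribosomal protein mRNA (22 probes of 13 genes, among them Mtor, Larp1 and Rheb) had 0.23, -1.09, 0.45 and -0.52. Of their probes, 2 were lower in males (9.09%), and 1 was lower (4.55%) and 2 were higher (9.09%) in females. On male 20 mg replicate 2 all 5 lists, the ribosomal proteins included, had a median below that of all detected probes (-0.16). The cerebellar (-0.33), red blood cell (-0.34) and meningeal (-0.86) markers were also below it, and the forebrain (-0.10) and choroid plexus (0.37) markers were above it. On female 20 mg replicate 1 all 5 lists had a median above that of all detected probes (0.03). There the forebrain (0.67) and choroid plexus (1.42) markers were above it, and the cerebellar (-0.17), red blood cell (-0.47) and meningeal (-0.44) markers were below it. The female calls of these lists rest mostly on the dim female array. Past 2.5-fold lower on female 20 mg replicate 1 and on the dim female array were 0 and 21 mitochondrial probes. The translation list had 1 and 14, the assembly list 1 and 11, and the control list 0 and 9. Past 2.5-fold higher were 1 and 21, 0 and 3, 1 and 6, and 0 and 2. Over all detected probes, 1142 and 12782 were lower and 725 and 6880 higher. Limma called no probe of any list.

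The summed signals of markers of other cells also varied between pools, before any scaling between arrays. The 8 probes of choroid plexus genes had a summed processed signal of 13439 on the female 2 mg array, 273690 on female 20 mg replicate 1, 2381 on the dim female array, 69627 on the male 2 mg array, and 49160 and 23792 on the male 20 mg arrays. Of the 8 probes, 5 were well above background on the dim female array and 7 or 8 on each other array. The 7 probes of red blood cell genes had 195430, 278690, 2213, 197770, 139600 and 32348 in the same order, and the 6 of meningeal genes 31045, 45206, 481.4, 41457, 29366 and 5352. The 15 probes of forebrain genes had 22559, 85249, 304.2, 16909, 17427 and 2581. On the normalized scale the choroid plexus probes had a median log2 difference of 1.42 on female 20 mg replicate 1, 1.41 on the dim female array, 0.38 on male 20 mg replicate 1 and 0.37 on male 20 mg replicate 2. By the fold rule 2 of the 8 were higher (25%, against 5.43% of all detected probes) and 1 lower (12.5%, against 15.3%) in females. Both female differences use the same female 2 mg array, and the 2 mg arrays themselves differed. Female minus male, their median was -1.08 for choroid plexus, 1.75 for forebrain, 0.31 for red blood cell, -0.19 for meningeal and -0.24 for cerebellar probes. Of 13 detected forebrain probes, 8 were past 2.5-fold higher in the female 2 mg array. In pooled tissue, a change in the make-up of cells and a change of RNA per cell cannot be told apart, and the part of these cells in the ribosomal protein values was not tested.

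The start of the gene was searched for the pyrimidine tract in a RefSeq promoter table of GRCm38.p6, with 250 bases before and 50 after the annotated start. Of the 82 symbols 61 had an entry. A run of at least 8 C or T that included the annotated start was found in 17 of 61 symbols (27.9%), against 4.59% of all 27025 symbols in the table. The motif CGGAAG, on either strand, was found in 65.6% of them (18.8% of all) and TATAAA in 11.5% (15.7% of all). The starts of 4 genes with the tract are shown, from 30 bases before to 19 bases after the annotated start base, with the run in capitals.
Rpl27a promoter, chr7:109519165-109519214, strand +: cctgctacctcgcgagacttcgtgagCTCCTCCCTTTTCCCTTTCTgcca
Rpl35 promoter, chr2:39005112-39005161, strand -: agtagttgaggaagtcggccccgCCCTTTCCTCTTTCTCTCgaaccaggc
Rps10 promoter, chr17:27635225-27635274, strand -: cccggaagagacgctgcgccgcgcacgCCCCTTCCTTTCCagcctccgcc
Rps6 promoter, chr4:86857348-86857397, strand -: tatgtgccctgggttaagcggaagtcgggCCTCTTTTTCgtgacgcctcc
The 17 genes with the tract had a median log2 difference by brightest probe of 0.33 on female 20 mg replicate 1, 0.24 on the dim female array, 0.36 on male 20 mg replicate 1 and -0.33 on male 20 mg replicate 2. For the 41 detected genes with an entry and no such run the medians were 0.02, -0.26, -0.09 and -0.32. These medians are a description, with no test. An annotated start that lies a few bases off the true one would hide a tract, so no match says only that the letters are not in this window.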

How the data were processed

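The 6 arrays fall into 4 groups of sex and dose by their labels. The deposited scanner files hold intensities per spot that the authors obtained in Agilent Feature Extraction 10.7.3.1, which subtracts background and sets no scale between arrays. The deposited value table holds log2 values that the authors quantile normalized, and it served as an alternative. After removal of outlier spots, the spots of each probe were averaged, taken to log2, quantile normalized and given a floor of 10 (linear). Probes well above background on at least 2 arrays count as detected.

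The fold rule takes its thresholds from the study's methods, a p of log intensity variation at or under 0.05, at most 50% missing and a mean difference of 2.5-fold. The variance test, which those methods do not spell out, was here a chi-square test of a probe's variance against the median variance, and the restriction to detected probes was added here. Limma 3.58.1 in R 4.3.3 was fitted with 4 groups and 2 residual degrees of freedom, with Benjamini-Hochberg adjustment over 37211 probes. The lone 2 mg array of a sex is assumed to vary like the others, and the prior SD was 1.32 on the log2 scale. The p-values rest on this prior and on the spread within the pairs of 20 mg arrays. The arrays of a pair differ in pool, extraction batch, slide and scan day, and these cannot be told apart. Both tests were tested on simulated data. Per gene, the brightest probe was used. Named were the stalk genes, 6 pairs of a core gene and a paralog, 10 further core genes, up to 5 genes per direction that moved alike on all 4 arrays at 20 mg, members called by limma, members at background on every array, and up to 3 genes per sex and direction past the fold rule on both arrays. Rpl11, Rps3a and Rpl7a probes and the other members named among the fold calls were chosen after their values were seen. The members, lists and tests were chosen with earlier results of these data known. Columns of other samples numbered 0. Some items are not reported here. Probe positions are those of the array design in mm9.

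Alternatives were a common 75th percentile, the floor before normalization, normexp with an offset of 50, no background correction, the authors' table, other detection filters, saturated probes left out, the brightest probe per gene, each 20 mg array left out, scan day as a block and values within slide 1.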

Additional observations from a re-analysis of the deposited data

Results flagged for a closer look

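Rpl7, by its brightest probe, was higher on both female arrays at 20 mg FA than on the female 2 mg array (0.28 and 0.43 on the log2 scale) and lower on both male arrays (-0.69 and -0.48). The mean female difference exceeded the male one by 0.940. Rpl7 is listed because all 20 mg arrays of a sex moved one way and those of the other sex the other way. The probe is 1 of 4 of the gene and has a G+C content of 35%. Member probes with at most 36% G+C had a median of -1.11 on male 20 mg replicate 1 and -0.63 on replicate 2. On female 20 mg replicate 1 and the dim female array their medians were 0.07 and -0.27. The part of base composition in the Rpl7 values was not tested. The opposite movement was not tested by itself beyond limma, which called no interaction of dose and sex. Of the female arrays, 1 is the one whose sex-linked transcripts went against its label. No group had 4 or more arrays, so no array could be tested as an outlier.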

How the results depend on the processing

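Limma called 0 ribosomal protein probes in every contrast under each alternative run. The count lower in males was 9 (5.03%, against 2.97% of all detected probes). It was 1 with a common 75th percentile (0.663% of all were lower there). With the brightest probe per gene it was 2 of 79 (2.53%), against 2.97% of all detected probes, which were not reduced to 1 per gene. Other settings kept it: 12 with normexp (6.70%, against 1.57% of all) and 12 with no background correction (6.70%, against 1.51%). The authors' table gave 11 (6.15%, against 3.15%), and the floor before normalization gave 10 (5.59%, against 3.65%). Probes detected on all 6 arrays gave 7 (4.17%, against 1.86% of all such probes). The count lower in females was 9 (5.03%, against 15.3% of all). It was 1 with a common 75th percentile (0.918% of all) and 4 with probes detected on all 6 arrays (2.38%, against 2.22% of all such probes). With the brightest probe per gene it was 0, against 15.3% of all detected probes, again not reduced to 1 per gene. Normexp gave 8 (4.47%, against 5.91% of all) and no background correction 7 (3.91%, against 5.25%). The authors' table gave 7 (3.91%, against 15.3%), and the floor before normalization gave 10 (5.59%, against 19.6%). The count higher in males was 0, and 1 with the authors' table (1.31% of all), and the count higher in females was 0, and 3 with no detection filter (8.65% of all). With a common 75th percentile the median difference was -0.57 in males (-0.12 over all detected probes) and 0.46 in females (0.45 over all), against -0.09 and -0.04. Within slide 1 the female median was 0.11, and no male array at 20 mg lay on that slide. With scan day as a block the medians were -0.16 in males and -0.0052 in females. Leaving out 1 array at 20 mg gave 2 to 12 member probes lower in males (1.12% to 6.70%), against 2.59% to 7.27% of all detected probes. In females 0 to 23 were lower (0% to 12.8%), against 3.13% to 20.4% of all. Higher were 0 to 1 in males, against 1.58% to 5.80% of all, and 0 to 2 in females, against 2.27% to 8.66% of all. The medians were -0.33 to 0.07 in males and -0.14 to 0.11 in females. The lowest male count came without male 20 mg replicate 1, and the lowest female count without the dim female array. The mean correlation was 0.067 and ranged from 0.023 to 0.127 when 1 array was left out. Of the 9 male probes, 8 or 9 were called again under 4 alternatives of the values, and 1 with a common 75th percentile. Of the 9 female probes, 6 or 7 were called again under those 4 and 1 with a common 75th percentile. The causes were not tested. No paired analysis was possible because the 2 mg arrays carry no replicate number. The fits with 1 array left out or with scan day as a block had 1 residual degree of freedom. With a 20 mg array left out, the spread came from the pair of the other sex. The number of arrays limits the precision. With fits of at most 2 residual degrees of freedom, a p that misses the threshold does not show that values did not differ.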
